A study of Mus musculus with 8 samples.

Results

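Chromatin sites bound by Qki-5 and by PPARb in differentiated mouse oligodendrocytes were compared, using the peak list of 1 ChIP-seq library for each factor. Peaks of 200 bp on chromosomes 1 to 19, X and Y were paired 1 to 1 where their centres lay at most 199 bp apart. The 30175 Qki-5 peaks and 26404 PPARb peaks gave 36926 sites, of which 19653 were shared, 10522 held Qki-5 alone and 6751 held PPARb alone. The 6 peak lists of the whole series held 109670 peaks on these chromosomes. The pairing used the chromosome and centre of each called peak, and not its place relative to genes or its height. A peak had to pass the caller's thresholds to be listed, however, so height did affect which sites could pair.

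The cells were oligodendrocytes differentiated from neural stem cells of an FvB/C57BL6 hybrid strain, at passage 7, in a Neurobasal medium with the B-27 supplement, insulin-like growth factor 1 and triiodothyronine. They carried an introduced PPARb with an HA tag, so the PPARb antibody could see the introduced and the cells' own protein, and an HA antibody the introduced protein only. Qki-5 was precipitated with a home-made antibody and PPARb with a commercial one from Thermo Fisher, and HA and RNA polymerase II (Pol II) libraries came from the same cells. The Qki-5 library held 18078176 tags, of which 3.66% fell in its peaks, and the PPARb library 22471011 tags with 2.78% in peaks. All 4 lists of these cells were called against the same 1 input library. A second set of lists, for Qki-5 and PPARb, came from C57BL6 oligodendrocytes isolated with O4 beads and not passaged. No library with less Qki-5 or less PPARb was used here, so antibody specificity could not be checked. Each factor had 1 library, so no test between conditions was possible, and all intervals are 95% exact intervals that cover counting error only.

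Qki-5 is the nuclear isoform of Quaking, an RNA-binding protein with a KH domain that is best known for directing splicing and RNA stability during myelination. PPARb, encoded by Ppard, is a fatty acid-activated nuclear receptor that binds DNA with a retinoid X receptor (RXR) partner. The pair reads a direct repeat of AGGTCA with 1 base between the copies, and its best-known targets serve fatty acid oxidation and lipid storage. Myelin is rich in cholesterol and galactosphingolipids, which makes lipid genes a natural group to follow in oligodendrocytes.

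The height of a peak is given as tags per 10000000, as deposited. The ratio is the log2 of the Qki-5 height over the PPARb height, so a positive value means a taller Qki-5 peak. The promoters below show the 2 ends of that ratio at gene starts. Etfb, Etfa, Lpcat3 and Mlycd had some of the tallest HA peaks of any gene start together with a PPARb peak above the Qki-5 peak. Dolpp1 and Cdca7 had the 2 highest ratios among pairs at the start of 1 gene only with at least 20 tags in each library. Each line gives the 250 bases before the RefSeq start (GRCm38.p6), 5′ to 3′ on the gene's strand. Capitals mark the 13-base stretch most like the AGGTCA direct repeat on either strand, with the number of its 12 fixed bases that matched given below. In Lpcat3 a second stretch further downstream matched equally well, and the first is marked. Etfb is at chr7:43443822-43444071 (plus strand), Etfa at chr9:55512244-55512493 (minus), Lpcat3 at chr6:124662854-124663103 (plus), Mlycd at chr8:119394644-119394893 (plus), Dolpp1 at chr2:30392004-30392253 (plus) and Cdca7 at chr2:72475969-72476218 (plus).
Etfb: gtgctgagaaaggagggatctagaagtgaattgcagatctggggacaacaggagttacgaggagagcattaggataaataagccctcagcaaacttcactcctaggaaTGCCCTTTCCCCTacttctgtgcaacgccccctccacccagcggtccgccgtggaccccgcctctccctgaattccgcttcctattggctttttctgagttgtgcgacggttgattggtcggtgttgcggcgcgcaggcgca
Etfa: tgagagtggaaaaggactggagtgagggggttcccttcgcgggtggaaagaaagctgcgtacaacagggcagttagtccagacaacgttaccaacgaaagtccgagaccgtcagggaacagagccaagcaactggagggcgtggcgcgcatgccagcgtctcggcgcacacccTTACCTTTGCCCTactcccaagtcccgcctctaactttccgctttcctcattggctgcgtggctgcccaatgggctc
Lpcat3: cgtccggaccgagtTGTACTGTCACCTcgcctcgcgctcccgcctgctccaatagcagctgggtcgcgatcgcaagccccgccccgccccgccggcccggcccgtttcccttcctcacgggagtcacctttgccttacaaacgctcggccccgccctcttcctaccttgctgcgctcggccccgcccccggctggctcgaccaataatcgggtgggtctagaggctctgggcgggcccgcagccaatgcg
Mlycd: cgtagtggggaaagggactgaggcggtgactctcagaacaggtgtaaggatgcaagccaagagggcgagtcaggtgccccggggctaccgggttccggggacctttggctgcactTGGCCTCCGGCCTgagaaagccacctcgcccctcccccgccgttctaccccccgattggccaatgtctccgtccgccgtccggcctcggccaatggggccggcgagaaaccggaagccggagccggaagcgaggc
Dolpp1: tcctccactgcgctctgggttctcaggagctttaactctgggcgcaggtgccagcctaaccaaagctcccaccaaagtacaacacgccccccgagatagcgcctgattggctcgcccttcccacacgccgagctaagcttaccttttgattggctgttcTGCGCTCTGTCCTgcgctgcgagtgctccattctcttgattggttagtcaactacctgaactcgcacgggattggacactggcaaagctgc
Cdca7: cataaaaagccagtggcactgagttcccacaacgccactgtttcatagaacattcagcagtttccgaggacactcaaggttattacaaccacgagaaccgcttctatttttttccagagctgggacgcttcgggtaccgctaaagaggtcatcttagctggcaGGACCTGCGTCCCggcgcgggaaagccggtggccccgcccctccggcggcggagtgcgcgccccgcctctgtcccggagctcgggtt

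The marked stretch matched 9 of 12 bases in Etfb, 10 in Etfa, 9 in Lpcat3, 9 in Mlycd, 9 in Dolpp1 and 8 in Cdca7. Mlst8 and Klf11, not printed, also had tall HA peaks at their starts (93.5 and 85.5) and ratios below 0. Their best stretches matched 8 bases each, as did that of Kmt2a, which had a high ratio. Among these few promoters the match thus did not separate those with tall HA peaks from those with a high ratio. A stretch with at least 9 matches was present in 22.9% (22.3 to 23.5%) of all 21238 RefSeq promoter windows, which run from 250 bases before to 50 bases after a start. It was in 17.6% (16.7 to 18.6%) of the 6733 windows that overlapped a shared site. Of the 29 windows with an HA height of at least 50, which lay at 26 sites, 12 held such a stretch (41.4%, 23.5 to 61.1%), against 17.5% of the 372 windows with an HA height from 30 to 50. At 10 or more matches the counts were 4 of 29 and 153 of 6733. The exact repeat was found in 10 of all windows and in 1 shared window. The search for near matches and the HA height of 50 were chosen after values had been seen.

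Most of each list was shared. In the Qki-5 list 65.1% of peaks (64.6 to 65.7%) had a partner within the limit, and in the PPARb list 74.4% (73.9 to 74.96%). The centres of paired peaks were a median of 46 bp apart (quartiles 21 and 85 bp), and 53.9% were within 50 bp. The distance shortened with height, from a median of 53 bp in the lowest quintile of pairs to 39 bp in the tallest. The 1192 pairs with centres 150 to 199 bp apart had median heights of 11.6 for Qki-5 and 9.79 for PPARb. Just beyond the limit, at 200 to 249 bp, lay 663 Qki-5-alone sites with a median height of 12.2 and 670 PPARb-alone sites with a median of 9.79. Sites on both sides of the limit were therefore of similar height.

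Alone sites had lower peaks than shared sites. The median Qki-5 height was 12.7 (quartiles 9.40 and 16.6) at shared sites and 8.30 (6.64 and 11.1) at Qki-5-alone sites. The median PPARb height was 10.7 (8.01 and 13.8) at shared and 7.12 (6.23 and 9.35) at PPARb-alone sites. Of the alone sites, 54.6% (Qki-5) and 51.1% (PPARb) were within 3 tags of the caller's threshold, against 16.8% and 17.6% of the same factor's peaks at shared sites. The share of peaks with a partner rose from 34.0% in the lowest quintile of Qki-5 heights to 88.0% in the tallest, and from 48.8% to 91.8% for PPARb. A peak of the other factor further off was common: it lay within 1000 bp of 25.7% of Qki-5-alone and 36.3% of PPARb-alone sites.

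**Figure D1:**
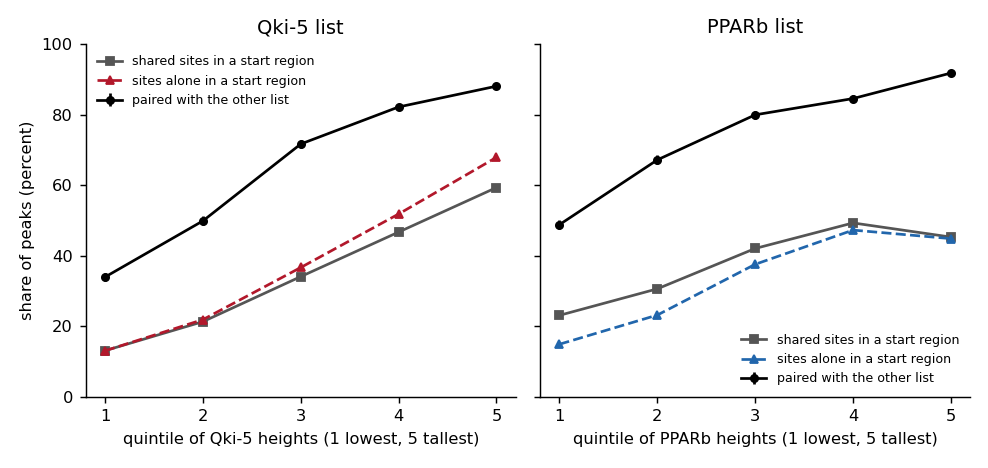
Share of peaks with a partner (black), and share in a start region for shared sites (grey) and alone sites (colour), by quintile of peak height within the Qki-5 list (left) and the PPARb list (right); the y axis is in percent and the intervals of the black points are smaller than the symbols. Pairing rises with height in both lists, and among the tallest Qki-5 peaks the alone sites lie in start regions more often than the shared ones (67.9% against 59.3%).

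The tallest alone sites show which genes had an unpaired peak well above threshold. For Qki-5 the tallest at gene starts were at Cic, a transcriptional repressor, with a height of 36.5, and at Eif2ak3, the kinase PERK of the unfolded protein response, with 35.4. The nearest PPARb peak was 706 bp from the Cic peak and 52177 bp from the Eif2ak3 peak. The start of Arntl, which encodes the clock factor BMAL1, held a Qki-5 height of 29.3 with a PPARb peak 338 bp away. Isolated cells had Qki-5 peaks at Eif2ak3 (18.8) and Arntl (22.4).

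For PPARb the tallest alone sites lay near Txnip, a glucose-regulated inhibitor of thioredoxin (36.5), inside Slc38a1, a glutamine transporter (30.3), and inside Camta1, a transcription factor (29.8). A Qki-5 peak was 229, 247 and 222 bp from these, and 8 of the 10 tallest PPARb-alone sites had one within 300 bp, just beyond the pairing limit. The start of Brd2, a reader of acetylated histones, stood apart with a PPARb height of 24.5 and the nearest Qki-5 peak 12823 bp away. The genes of the factors themselves each had a called peak of only the other factor at the start in these cells. The start of Qk held a PPARb height of 11.6 with no Qki-5 peak within 6867 bp, and the start of Ppard a Qki-5 height of 10.5 with no PPARb peak within 3807 bp. Other libraries did have the missing factor there: isolated cells had a Qki-5 peak of 11 at the Qk site, and the Ppard site had an HA peak of 18.2 and a PPARb peak of 6.53 in isolated cells. Away from the starts, the differentiated cells had a called peak of each factor in its own gene. Inside Ppard, 3690 bp from a start, a pair had 13.8 for Qki-5 and 14.2 for PPARb (-0.041). Inside Qk lay a Qki-5-alone peak of 6.64 with 12 tags, no more than the caller's threshold of 12 for that library.

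Shared sites were more often at gene starts than alone sites. A start region was the 1000 bp on each side of a RefSeq start of a protein-coding gene, or of either gene end for the 4395 of 21887 genes whose start was not in the promoter table. It held 39.9% (39.3 to 40.6%) of shared sites, 27.2% (26.3 to 28.0%) of Qki-5-alone sites and 26.4% (25.4 to 27.5%) of PPARb-alone sites. Of the 12489 start-region sites 62.8% were shared, and of the 12984 sites inside genes 48.8%. Height moved with this difference: within quintiles of Qki-5 height the start-region share was 13.1% for shared and 13.1% for alone sites in the lowest quintile, and 59.3% and 67.9% in the tallest. Within quintiles of PPARb height it was 23.1% and 14.9% in the lowest, and 45.3% and 44.8% in the tallest. When only the 10000 tallest peaks of each list were used, the difference between shared and Qki-5-alone sites turned to -8.48 percentage points, while that to PPARb-alone sites was 17.4.

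At paired sites the Qki-5 peak was usually the taller on the deposited scale, by a small amount. Qki-5 was taller at 14537 pairs, PPARb at 4977, and 139 pairs were equal. The median ratio was 0.25 (1.19-fold), with quartiles of -0.0081 and 0.52 and a range of -1.42 to 1.92. Past 2-fold, 597 pairs (3.04%) were higher for Qki-5 and 31 (0.158%) for PPARb. These counts depended on the scale: with fold over input in place of height they were 2934 and 1301, and with heights relative to each list's median 222 and 101. The median ratio was 0.072 relative to list medians and 0.040 by fold over the surrounding region, where pairs away from start regions had -0.018 and those in them 0.12. Each pair rested on a median of 47 tags over both libraries, and the median interval of a ratio was 1.797 log2 units wide. The standard deviation of the ratio over pairs was 0.40, below the 0.44 computed for counting error alone. Both peaks of a pair had to pass the caller's thresholds, which cuts off low counts, and the computed value does not allow for this. The 2 values therefore cannot show whether the ratios varied beyond counting error. The intervals of 391 pairs (1.99%) lay above the median and of 335 (1.71%) below. Intervals of 95% can leave such shares outside by counting error alone, so these counts do not show that any single pair differed. The intervals of single pairs given below do not allow for their choice from all pairs.

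**Figure D2:**
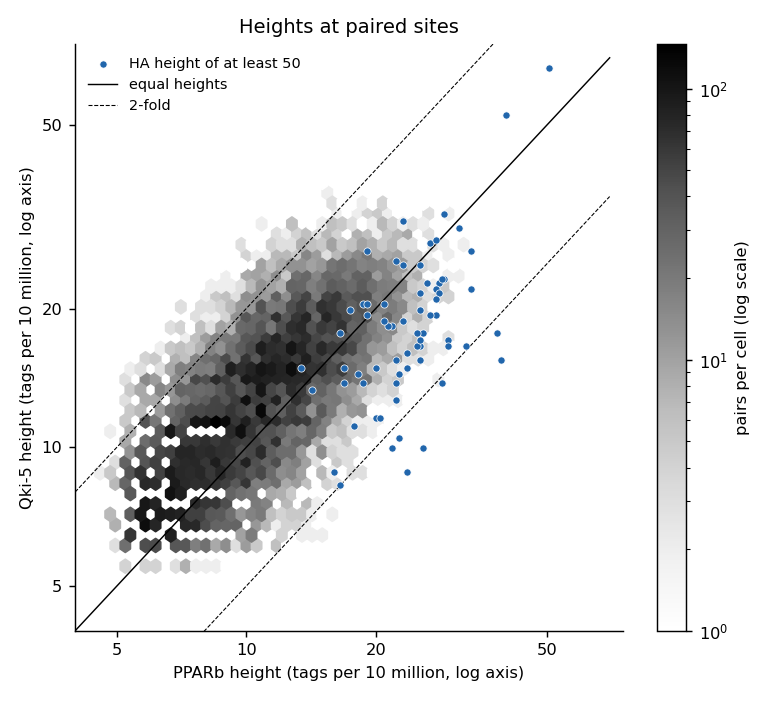
Qki-5 height (y axis) against PPARb height (x axis) at 19653 paired sites, both in tags per 10000000 on log axes, with grey showing the number of pairs per cell and blue points the 68 pairs with an HA height of at least 50. Heights move in steps of 1 tag, which leaves empty cells at low values; most pairs lie above the line of equal heights, and 53 of the 68 blue points lie below it.

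The ratio differed by genomic place. In start regions the median was 0.39 over 7848 pairs, and the summed tags gave 0.39 (0.38 to 0.40). Away from them it was 0.18 over 11805 pairs, and the summed tags gave 0.16 (0.15 to 0.17). The median heights behind these values were 14.9 for Qki-5 and 11.6 for PPARb in start regions, and 11.1 and 9.79 elsewhere. Pairs inside genes (0.17), outside genes up to 10 kb (0.21), at 10 to 50 kb (0.17) and beyond 50 kb (0.19) were close to each other. At the far end of genes, where the start was known, the median was 0.24 over 185 pairs.

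The size of this difference varied with height. In the tallest quintile of pairs the medians were 0.40 in start regions and 0.10 elsewhere, and in the lowest quintile 0.31 and 0.20. Among pairs with a Pol II peak the medians were 0.38 in start regions and 0.18 elsewhere, and among those without 0.39 and 0.19. With an HA peak they were 0.38 and 0.17, and without one 0.42 and 0.20. By fold over input the medians were 0.38 and 0.16. Of the pairs whose interval lay wholly above the median, 298 were in start regions (3.797% of pairs there) and 93 elsewhere (0.788%). Of those wholly below, 52 were in start regions (0.663%) and 283 elsewhere (2.40%). Medians of the autosomes ran from 0.20 on chromosome 12 to 0.31 on chromosome 16.

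**Figure D3:**
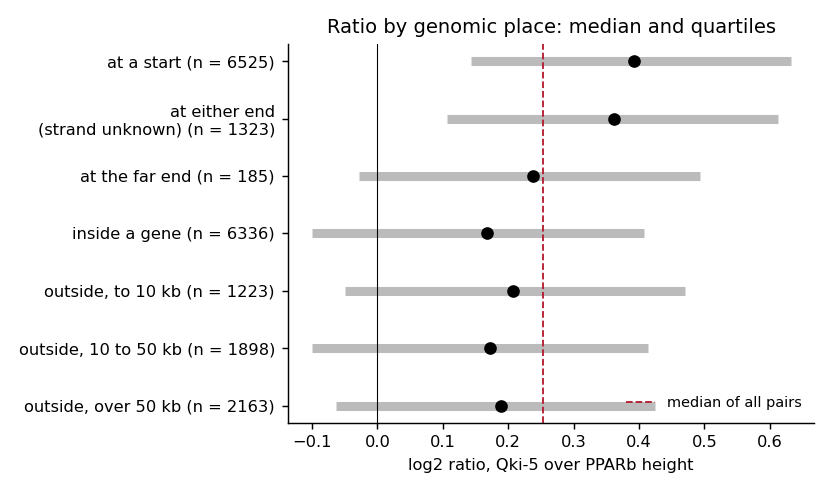
Median (point) and quartiles (bar) of the log2 ratio of Qki-5 over PPARb height by genomic place, with the number of pairs in each; the dashed line is the median of all pairs (0.25). The 2 start groups sit at 0.39 and 0.36, and the places away from starts between 0.17 and 0.24.

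Pairs at the high end of the ratio were mostly at gene starts and pairs at the low end inside genes. Start regions held 18.3% of the lowest decile of pairs by ratio and 61.8% of the highest. Among pairs with at least 20 tags in each library, the highest ratio was at the shared start of Taf6, a subunit of the general transcription factor TFIID, and Cnpy4. Its heights were 42 for Qki-5 and 11.1 for PPARb (ratio 1.92, 1.25 to 2.63), at chr5:138187204-138187404 in mm10. Dolpp1, which recycles the dolichol carrier of glycosylation, followed with 33.7 and 9.79 (1.78, 1.06 to 2.56), and Cdca7, a chromatin protein of dividing cells, with 33.2 and 10.7 (1.63). Kmt2a, a histone methyltransferase, had heights of 58.1 and 19.1 (1.61, 1.08 to 2.15). Of the 10 highest ratios, 9 were in start regions.

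At the low end, among pairs with the same minimum of 20 tags in each library, none of the 10 lowest ratios was in a start region and 8 were inside genes. Without that minimum lower ratios occurred, as near Grin2b (8.85 and 23.6, ratio -1.42), and 2 start-region pairs were past 2-fold toward PPARb, among them that of Ilvbl (9.96 and 21.8, ratio -1.13). With the minimum, the lowest was inside Angptl4, which encodes a secreted inhibitor of lipoprotein lipase, with heights of 15.5 for Qki-5 and 39.2 for PPARb (-1.34, -2.01 to -0.71). Next were sites inside Arntl, with 11.6 and 25.4 (-1.13, -1.92 to -0.38), and inside Ldlrad3, a receptor of the low-density lipoprotein receptor family, with 17.7 and 38.3 (-1.11, -1.75 to -0.51). Agpat3, an acyltransferase of phospholipid synthesis, had 13.8 and 28.5 (-1.05). Arntl thus held a pair with the taller PPARb peak in its body. At its start both factors had peaks, 338 bp apart and so beyond the pairing limit.

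The HA library, which reports the introduced PPARb, was not used in the pairing. An HA peak lay at 83.0% of shared sites, 38.2% of Qki-5-alone and 47.4% of PPARb-alone sites. In the tallest quintile of each list the shares at shared and alone sites were 91.7% and 62.3% for Qki-5, and 94.1% and 73.1% for PPARb. Many Qki-5 peaks without a called PPARb peak therefore had an HA peak. The taller the HA peak, the more often it was at a shared site: 26.2% of the HA peaks under 10 and 68 of the 77 peaks of at least 50 (88.3%).

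The ratio was lowest where the HA peak was tallest. Its median was 0.28 at the 3351 pairs without an HA peak, 0.24 for HA heights under 10, 0.27 from 10 to 15, 0.31 from 15 to 20, 0.24 from 20 to 30 and 0.098 from 30 to 50. At the 68 pairs with an HA height of at least 50 it was -0.36 (quartiles -0.68 and -0.053), with median heights of 17.7 for Qki-5 and 23.6 for PPARb. PPARb was the taller at 53 of these and Qki-5 at 15, and the summed tags gave -0.34 (-0.41 to -0.26). By medians start regions did not stand above the rest here, with -0.37 at 30 start-region pairs and -0.35 at 38 others. By summed tags they did, with -0.25 (-0.36 to -0.13) in start regions and -0.40 (-0.50 to -0.30) elsewhere. Past 2-fold, 7 of the 68 were higher for PPARb and 0 for Qki-5, where 0.158% and 3.04% of all pairs were. When the HA height was required to be at least 30 the median turned to 0.079, and at 80 it was -0.65. The PPARb and HA antibodies bind the same introduced protein, so these 2 heights are not separate evidence of binding.

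**Figure D4:**
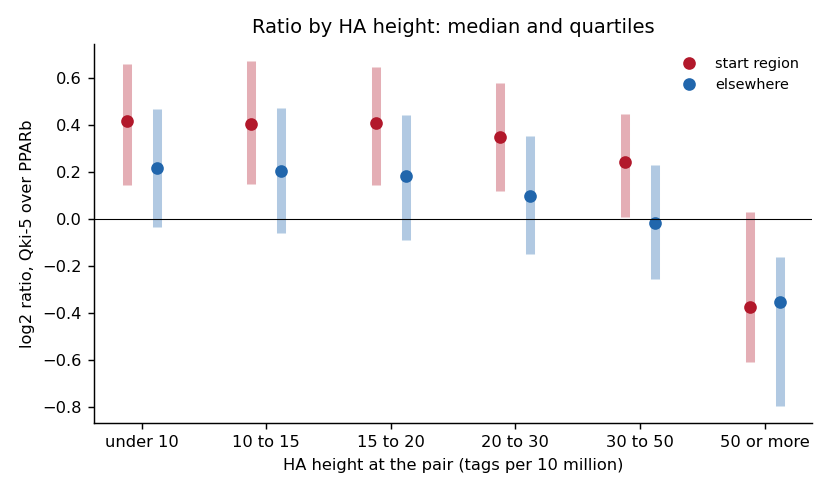
Median (point) and quartiles (bar) of the log2 ratio of Qki-5 over PPARb height by HA height at the pair, in tags per 10000000, for start regions (red) and elsewhere (blue). The red medians lie above the blue ones up to an HA height of 50, and both are below 0 beyond it, at -0.37 and -0.35.

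Of the 30 start-region pairs in this group, 5 were at genes of the mitochondrial fatty acid oxidation list, which had 16 of the 7434 sites behind the tallest pair of each gene. The rest of the 68 lay at genes of varied roles, such as Mlst8, Nup85, Myh14 and Ap1g1, and the members described here were chosen after their values were seen. The tallest HA peak at a pair, 122.8, was inside Cpt1a, which encodes the enzyme that admits long-chain fatty acids to mitochondria, with heights of 10.5 for Qki-5 and 22.7 for PPARb (-1.11, -1.95 to -0.33). The start of Etfb (chr7:43443954-43444154) had an HA height of 114.1 with 17.1 for Qki-5 and 29.4 for PPARb (-0.78, -1.44 to -0.14). Etfb and Etfa are the subunits of the flavoprotein that takes electrons from acyl-CoA dehydrogenases. Etfa had 13.8 and 16.9 (-0.29, -1.08 to 0.48), an interval that includes 0. Acadl, the long-chain acyl-CoA dehydrogenase (chr1:66862773-66862973), had 11.1 and 17.8 (-0.68, -1.54 to 0.12).

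Further members had lower and near equal ratios. Lpcat3, which attaches polyunsaturated chains to phospholipids (chr6:124662972-124663172), had 12.7 for Qki-5 and 22.3 for PPARb (-0.81, -1.59 to -0.067). Mlycd, the malonyl-CoA decarboxylase, had 19.9 and 25.4 (-0.35, -0.99 to 0.28). Acaa2, the last thiolase of mitochondrial oxidation, was an exception with 19.4 and 19.1 (0.022) at an HA height of 103.8. Tbc1d1, a regulator of glucose transporter traffic, had 9.96 and 25.8 inside the gene (-1.37, -2.23 to -0.59), and Pdgfra, the growth factor receptor of oligodendrocyte precursors, 8.30 and 16.5 (-0.99) inside the gene. In the pairs of Lpcat3 and Tbc1d1 the centres lay between 150 and 199 bp apart, so the 2 peaks compared overlapped little.

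An isolated-cell peak of PPARb was present at 17 of the 68 (25%, 15.3 to 37.0%), against 4.85% of all pairs, and one of Qki-5 at 28 (41.2%) against 25.2%. Pairs with lower HA peaks were also above all pairs. For PPARb the share was 9.73% at HA heights from 20 to 30 and 14.3% from 30 to 50. For Qki-5 it was 42.4% and 41.8%, so the Qki-5 share was not particular to the 68. Angptl4 (19), Acadl (13.1) and Etfa (10.9) were among the pairs with a PPARb peak in isolated cells. The isolated-cell list for PPARb held 1391 peaks, so most pairs had none to compare. Where isolated cells had both peaks, at 822 pairs, Qki-5 was taller at 91.1%, and the median ratio was 0.64 there against 0.38 in differentiated cells at the same pairs. The ratios of the 2 cell preparations had a Spearman coefficient of 0.10 over these sites, which are not independent replicates. The isolated-cell ratio had a standard deviation of 0.42, below the 0.47 computed for counting error, with the same limit from the caller's thresholds. Across all pairs, a Qki-5 peak in isolated cells went with a median ratio of 0.38 against 0.21 without one, and a PPARb peak in isolated cells with 0.36 against 0.25. For Qki-5 these medians were 0.41 and 0.38 in start regions, and 0.28 and 0.17 elsewhere. For PPARb they were 0.39 and 0.38 in start regions, and 0.13 and 0.18 elsewhere. The higher ratio with an isolated-cell PPARb peak was therefore not seen within places, and 764 of those 953 pairs were in start regions.

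Of 21887 protein-coding genes, 8315 (38%) had a shared site in their start region, 1351 (6.17%) a Qki-5-alone site only, 416 (1.9%) a PPARb-alone site only, 911 both factors apart and 10894 none. At the tallest pair of each gene the median ratio was 0.39, with 439 genes (5.28%) past 2-fold for Qki-5 and 2 (0.0241%) for PPARb. The 24 gene lists below are read against these shares and this median. Over the 7434 sites of these pairs PPARb was the taller at 14.5%.

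Known PPAR targets had the lowest median ratio of the lists with at least 5 genes at a shared site. Of 22 targets 8 (36.4%) had a shared start-region site, a share near that of all genes, with a median of -0.18 and PPARb taller at 4 of the 8. Slc27a1, a fatty acid transporter, had a Qki-5 height of 13.8 beside a PPARb height of 18.7 (-0.44), and Acot1, an acyl-CoA thioesterase, 13.3 and 17.4 (-0.39). At the other end stood Cpt2, the inner carnitine palmitoyltransferase, with 10.5 and 6.23 (0.75, -0.32 to 1.86). The interval of each of the 8 included 0. Set against the median of all genes, 3 of the 8 intervals lay wholly below and 0 wholly above, where 125 and 162 of the 8315 genes did. By fold over input the median ratio of the targets turned to 0.29. The 12 pairs near or in these genes but away from starts, which include those of Angptl4 and Cpt1a, had a median of -0.37 and summed tags at -0.48 (-0.71 to -0.25).

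Genes of mitochondrial fatty acid oxidation were mostly shared and varied widely in ratio. A shared site was at the start of 17 of 24 (70.8%), the 2 factors apart at 5, and the median ratio was 0.24. PPARb was the taller at 7 of the 16 sites, against 14.5% of the sites of all genes, and the 5 sites with an HA height of at least 50 were among 30 such in the 7434 sites of all genes. Etfb, Acadl, Eci2, Acads, Etfa, Eci1 and Acadm had ratios below 0. Hadha and Hadhb, the subunits of the trifunctional protein, share 1 site with heights of 22.7 for Qki-5 and 12.9 for PPARb (0.82, 0.092 to 1.55). At Acadvl, the very-long-chain dehydrogenase, the Qki-5 peak of 14.9 and the PPARb peak of 14.2 were too far apart to pair, and likewise at Etfdh (19.4 and 20). Acaa2, Acadvl, Cpt1a, Cpt2 and Slc25a20 are counted in this list and among the PPAR targets.

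Peroxisomal genes had a shared site at 17 of 26 (65.4%), with a median ratio of 0.11. Their range was broad. Far1, the reductase that makes fatty alcohols for ether lipids such as plasmalogens, had 28.8 for Qki-5 and 13.4 for PPARb (1.10, 0.43 to 1.81). Pex16, which helps form the peroxisomal membrane, had 12.2 and 19.1 (-0.65, -1.47 to 0.12).

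Genes of sphingolipid and galactolipid metabolism had the highest median, 0.61, and PPARb was taller at 0 of 12 sites. The summed tags gave 0.68 (0.45 to 0.91), and those of all genes 0.39 (0.38 to 0.40). Such intervals cover tag counting and not the spread between genes, so the difference was not tested. The ratios of the 12 genes ran from 0.020 to 1.31, and 8 were above the median of all genes. Smpd1, the lysosomal sphingomyelinase (chr7:105554226-105554426), had 17.7 for Qki-5 and 7.12 for PPARb (1.31, 0.41 to 2.28). Sptlc2, a subunit of the enzyme that starts sphingolipid synthesis, had 28.2 and 13.4 (1.07, 0.40 to 1.78). Sgms1, a sphingomyelin synthase, had near equal heights of 14.4 and 14.2. The start of Ugt8a, which makes the galactolipid of myelin, held Qki-5 alone (8.85). The 10 pairs of these genes away from starts had a median of 0.53.

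Glycolysis genes came next, with 14 of 20 shared, a median of 0.57 and summed tags at 0.56 (0.35 to 0.76). Gapdh had heights of 23.8 for Qki-5 and 9.79 for PPARb (1.28, 0.51 to 2.09), and Pgam1, a mutase of the lower pathway, had 20.5 and 9.79 (1.07, 0.26 to 1.90). The lactate exporter Slc16a1 went the other way with 9.96 and 12 (-0.27, -1.22 to 0.64). Pkm, the last kinase of the pathway, had a Qki-5 peak of 23.2 at its start and no PPARb peak. Genes of the citric acid cycle had a shared site at 22 of 25 and a median of 0.52, from Sucla2 (18.3 and 8.01, ratio 1.19) to Dld (9.40 and 12.9, ratio -0.46).

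The remaining lipid and housekeeping lists were nearer the median of all genes. Cholesterol synthesis genes had 18 of 24 shared and a median of 0.48, fatty acid synthesis genes 19 of 27 and 0.31, respiratory chain genes 30 of 33 and 0.32, proteasome genes 30 of 31 and 0.39, and splicing factors 34 of 40 and 0.43. Among fatty acid genes, Elovl1, an elongase of very long chains, had 8.85 for Qki-5 and 14.7 for PPARb (-0.73, -1.69 to 0.17), and Hacd3, a dehydratase of the same cycle, 13.3 and 6.23 (1.09, 0.082 to 2.16). Ribosomal protein genes had 33 of 40 shared and a median of 0.41, with PPARb taller at 0 of 33 sites and summed tags at 0.53 (0.41 to 0.65). Rpl32, a large-subunit protein, had the highest ratio of any list member with 44.8 and 14.7 (1.61, 1.01 to 2.24).

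Nuclear receptor genes had a shared site at 11 of 26 and a median of 0.13, and their coregulators at 12 of 16 with 0.31. The RXR genes differed among themselves. The start of Rxra had heights of 18.8 for Qki-5 and 11.1 for PPARb (0.76, -0.030 to 1.56), and 3 further pairs lay inside the gene. The start of Rxrb had 18.8 and 17.8 (0.079), and that of Rxrg PPARb alone at 5.34. Circadian clock genes had a shared site at 12 of 16 and a median of 0.20. Cry1, a repressor of the clock, had 24.3 and 12.9 (0.91, 0.21 to 1.64) and Clock 14.9 and 18.7 (-0.33).

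Myelin genes had few pairs at their starts. A shared site was present at 4 of 30 (13.3%), Qki-5 alone at 3, PPARb alone at 2, both apart at 1 and neither at 20, against 38% shared over all genes. Plekhb1, Gjc3, Car2 and Fa2h were the 4, with ratios from -0.14 to 0.41. Cnp, a membrane enzyme of myelin, held a Qki-5 height of 11.1 alone. Away from starts these genes had 27 pairs, with a median of 0.10. Sox10, a lineage transcription factor, had no site within 5000 bp. Among 23 lineage transcription factors 8 were shared, with Chd7, a chromatin remodeller, highest (24.9 and 14.2, ratio 0.81), and Olig1 held PPARb alone (11.6).

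The marker lists of other cells were low at starts too: 3 of 14 precursor genes, 3 of 12 astrocyte genes, 2 of 14 neuron genes, 1 of 14 microglia genes and 0 of 13 endothelial and mural genes had a shared site, and 1 of 26 genes of other tissues. Peaks at gene starts do not measure expression, so the cell type given in the labels was not checked by these counts.

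**Figure D5:**
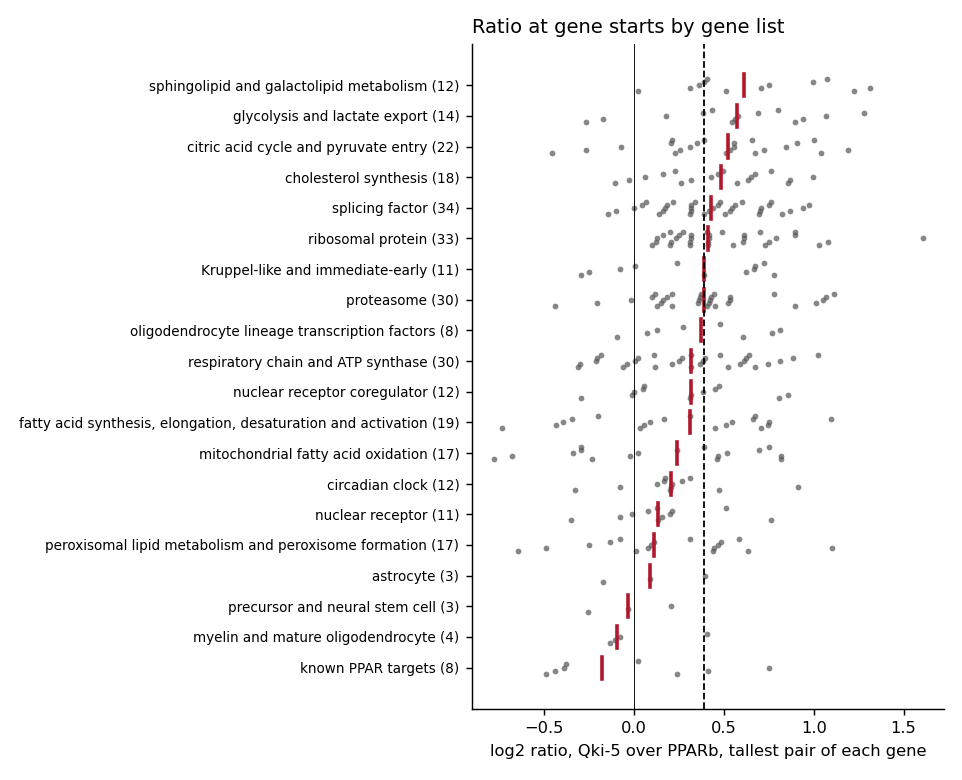
Log2 ratio of Qki-5 over PPARb height at the tallest start-region pair of each gene (points), by gene list with the number of genes that had such a pair; red bars are list medians and the dashed line is the median of all genes (0.39). Lists are ordered by median, from sphingolipid genes (0.61) to known PPAR targets (-0.18), and every list with more than 5 genes has points on both sides of the dashed line.

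The site classes differed in the short sequences of their promoter windows. The ETS-type sequence CCGGAAG, on either strand, was in 25.2% (24.2 to 26.3%) of windows with a shared site, 14.5% (12.7 to 16.5%) with Qki-5 alone, 10.5% (8.07 to 13.3%) with PPARb alone and 11.6% of all windows. The CCAAT box was, unlike CCGGAAG, less frequent in shared than in Qki-5-alone windows, at 38.4% of shared, 45.9% (43.3 to 48.6%) of Qki-5-alone, 34.0% (30.1 to 38.0%) of PPARb-alone and 38.2% of all windows. GGGCGG, the core of the GC box, was in 72.9% of shared windows, 66.5% with Qki-5 alone, 70.9% with PPARb alone and 46.2% of all. AGGTCA alone was in 9.73% of shared, 11.02% of Qki-5-alone, 11.9% of PPARb-alone and 14.7% of all windows. CpG content moved with these shares: the median number of CpG in a window was 24 with a shared site, 20 and 21 in the alone classes, and 13 over all, and its part in them was not tested.

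Within shared windows the median ratios with and without a sequence were closer than the quartiles of the ratio. Windows with CCAAT had a median ratio of 0.44 and those without 0.38, and with or without CCGGAAG it was 0.42 and 0.40. By quintile of CpG number the median went from 0.44 in the lowest to 0.38 in the highest. Of the promoters printed above, the 300-base windows of Etfb, Etfa, Lpcat3 and Mlycd held 16, 21, 36 and 27 CpG, and those of Dolpp1 and Cdca7 held 20 and 26. A letter match describes the window and is not a binding site.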

How the data were processed

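The authors deposited 1 HOMER peak list for each antibody library and none for the inputs. The tools listed are HOMER 4.10.1, SAMtools 1.8, Bowtie 1.2.2, Trim Galore 0.4.4 and bcl2fastq 2.19.1.403, and the build is mm10, per the submitters' processing notes. Per the file headers, HOMER's factor style gave 200 bp peaks with a false discovery rate of 0.001 and at least 4-fold more tags than the input and than the local 10000 bp, and the Qki-5 header names a merged tag directory whose parts are not given in the sources used here. Heights are the normalized tag count, a signal the authors scaled to 10000000 tags per library. Fold over input is a ratio the authors deposited, the focus ratio a fraction as deposited, and tag counts per peak were deposited as whole tags or were recovered here from height and library total.

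Peaks were paired where each was the nearest of the other list. Ratios used no pseudocount, and their intervals are exact binomial intervals of the 2 tag numbers. Gene positions and promoters are those of RefSeq GRCm38.p6, the same coordinates as mm10: 17492 of 21887 protein-coding genes had a promoter window, and none of the 511 genes on chromosome 18 did. Python 3.11.15 with numpy 2.4.6, pandas 2.3.3, SciPy 1.17.1 and matplotlib 3.10.9 was used, and the pairing was tested on simulated data. The labels give 1 sample per group, so no comparison was tested. Genes named were a fixed set of 14, the extremes of each list and the 10 extremes of ratio and height, besides the tallest HA pairs. The members and lists were chosen with earlier results of these data known. Alternatives varied the pairing distance, the peak threshold, the scale, the tag minimum and the start window. Some members of the lists are not reported here by name.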

Additional observations from a re-analysis of the deposited data

How the results depend on the processing

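No paired analysis was possible because each group has 1 library. Of 90 alternative values, 38 stayed within the interval or 1.5 times the count of the value reported, 49 moved and 3 changed sign. A pairing distance of 100, 50 or 400 bp gave paired shares of 53.2%, 35.1% and 69.99% for Qki-5 and 60.8%, 40.1% and 79.98% for PPARb. An 8-fold threshold gave 56.1% and 67.6%, and the 10000 tallest peaks of each list 66.4% for both. The median ratio was 0.27 at 50 bp, 0.25 at 8-fold, 0.27 for the tallest peaks, 0.24 as fold over input, 0.072 relative to list medians and 0.28 with 20 tags in each library. The counts past 2-fold toward Qki-5 under these were 324, 319, 116, 2934, 222 and 270, and toward PPARb 12, 18, 3, 1301, 101 and 4, with 18 at 100 bp. The start-region share of shared less Qki-5-alone sites was 9.98 points at 100 bp, 8.70 at 50 bp, 17.4 at 400 bp, 5.74 at 8-fold, -8.48 for the tallest peaks, and 15.4 and 10.5 with windows of 500 and 5000 bp. Less PPARb-alone sites it was 9.30, 7.74 and 21.1 at these distances, 17.4 for the tallest peaks, and 16.1 and 10.6. The ratio difference between start regions and elsewhere was 0.19 for the tallest peaks. For HA the share of shared less Qki-5-alone sites was 41.4 points at a match of 100 bp and 40.8 at 400 bp, and less PPARb-alone sites 30.7 at 400 bp. For Pol II the 2 differences were 23.4 and 20.5 points at 100 bp. CCGGAAG was in 27.2% of shared windows when assigned by peak centre. The median at tall HA pairs was 0.079 from an HA height of 30, and that of PPAR targets 0.29 by fold over input. The causes were not tested. About 47 tags per pair limit what a ratio can show at 1 site.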

Other observations

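The 2 tallest Qki-5-alone sites lay where the input was also high. A site on chromosome Y, with Gm20830 the nearest gene, had a Qki-5 height of 82.4, 31.4 scaled input tags and 4.74-fold over input, and the next, inside 4930467E23Rik on chromosome 8, had 65.8, 22.9 and 5.21. At Cic the height of 36.5 stood 138.6-fold over an input of 0.5 tags, the lowest the caller assigns. Both high-input sites had HA peaks, of 83.2 and 71.3, and a median shared Qki-5 peak had 1.90 input tags.

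The HA library set beside each factor at 16302 pairs gave a median log2 of PPARb over HA of -0.65 in start regions and -0.50 elsewhere, and of Qki-5 over HA of -0.27 and -0.32. The value for PPARb differed more between the places than the value for Qki-5. None of the 4 other lists had a peak at 11.8% of shared, 54.9% of Qki-5-alone and 46.0% of PPARb-alone sites, and all 4 had one at 495 shared sites (2.52%).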
